A study of Homo sapiens with 6 samples.

Results

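Aminoacyl-tRNA synthetases are the enzymes that load each tRNA with its amino acid. The 36 genes examined here were taken by name, 20 for enzymes of the cytosol and 16 for enzymes of the mitochondrion (names ending in 2). No measured value entered that rule, but the genes were chosen with earlier results of these data known. Of these 36 genes, 32 had a probe set that names a single gene, and all 32 passed the filter on dim signals and were tested, among 11835 tested genes in all. They were 17 of the 20 cytosolic and 15 of the 16 mitochondrial genes. For MARS1, QARS1 and TARS2 the only probe sets also name another gene, so that no value is given.

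HT29 cells were derived from a human adenocarcinoma of the colon, and methotrexate (MTX) is an antifolate that inhibits dihydrofolate reductase. RNA from 3 samples of HT29 cells resistant to 10 µM MTX and from 3 samples of HT29 sensitive cells was hybridized to Affymetrix HG U133 PLUS 2.0 arrays, and the question is which of these genes differed between both lines. The resistant cells had been obtained by stepwise exposure to MTX and were grown in medium lacking glycine, hypoxanthine and thymidine, with dialyzed serum. The sensitive cells were grown in Ham's F12 medium with whole fetal bovine serum, so that resistance and medium cannot be told apart. No source states that the triplicates came from separate cultures, and the p-values then measure no more than the spread among the samples at hand, which can be technical. Whether fewer cells or less RNA per cell carried a lower signal cannot be told apart in bulk RNA.

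Each synthetase activates 1 amino acid with ATP and transfers it to the matching tRNAs, and both structural classes of synthetases, class I and class II, have their own type of catalytic fold. In the cytosol of animal cells several synthetases are held together with scaffold proteins in a multi-synthetase complex. All mitochondrial synthetases are encoded in the nucleus and imported, and they serve the translation of the few respiratory chain proteins encoded by mitochondrial DNA. GARS1 and KARS1 each make both the cytosolic and the mitochondrial enzyme, EPRS1 joins the glutamate and proline enzymes in a single chain, and mitochondria have no glutamine enzyme of their own.

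Each probe set had 1 MAS5 signal per array, on a linear scale of intensity. The scaled signal used below is the signal divided by the median of its array, so that 1 is the array median, and the log2 fold change is that of resistant over sensitive cells. A gene was called higher or lower when limma gave an adjusted p under 0.05 (Benjamini-Hochberg over all 11835 genes). The median signal of the arrays was 13.3 to 16.9 in resistant cells and 14.2 to 15.4 in sensitive cells. Resistant replicate 1 stood apart, since it was the highest of the resistant arrays for 70.9% of all tested genes and for 30 of the 32 synthetases. Sensitive replicate 1 was the highest sensitive array for 22 of the 32, and for 55.4% of all tested genes. Each of these arrays had the lowest median signal of its group (13.3 and 14.2), by which its signals were divided. The 3' to 5' signal ratio of ACTB, a measure of RNA integrity, was 1.17 to 1.30 in resistant and 1.12 to 1.17 in sensitive cells. The same ratio of GAPDH was 0.98 to 1.04 in resistant and 1.00 to 1.01 in sensitive cells. The part of these ratios in the results was not tested. Of 10 markers of colon epithelium, 8 were tested and 6 of them were lower in resistant cells, where 22.5% of all tested genes were lower. The summed scaled signal of the list was 1596 to 1794 in resistant and 2060 to 2271 in sensitive arrays. CDX1 and CDX2, transcription factors of the intestine, were under the filter on dim signals in these cells. Of 8 markers of other cell types, 7 were measured, with a summed signal of 383 to 418 in resistant and 409 to 462 in sensitive arrays that is nearly all LYZ, and only VIM was called, with a log2 fold change of 1.26. PTPRC and CD3E, which define leukocytes, and COL1A2 and DCN, which define fibroblasts, were all under the filter. The part of these markers in the results was not tested.

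Of the 32 synthetase genes, 3 were higher in resistant cells (EPRS1, TARS1 and IARS2), 10 were lower (CARS1, FARSA, FARSB, HARS1, IARS1, CARS2, EARS2, LARS2, RARS2 and YARS2) and 19 were not called. That is 40.6% of the members called, where 34.9% of all tested genes were called, 12.4% higher and 22.5% lower. The share of synthetases called is therefore near that of all genes. The median log2 fold change was -0.22 over the synthetases and -0.10 over all genes. Most changes were small, and YARS2 alone moved by more than 1 on the log2 scale. The arrays of the groups did not overlap for 19 synthetases (59.4%), 15 of them lower and 4 higher, where 46.2% of all genes had arrays that did not overlap (29.3% of all genes with the resistant arrays lower and 16.8% with them higher). With quantile normalization, which moved the median of all genes to 0.02 and the share of higher genes among all calls to 52.8% instead of 35.6%, 5 synthetases were higher and 9 lower. The count of higher synthetases was 1 without resistant replicate 3, without sensitive replicate 2 or without sensitive replicate 3. The count of lower synthetases was 6 without resistant replicate 2 and 15 without resistant replicate 1.

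**Figure D1:**
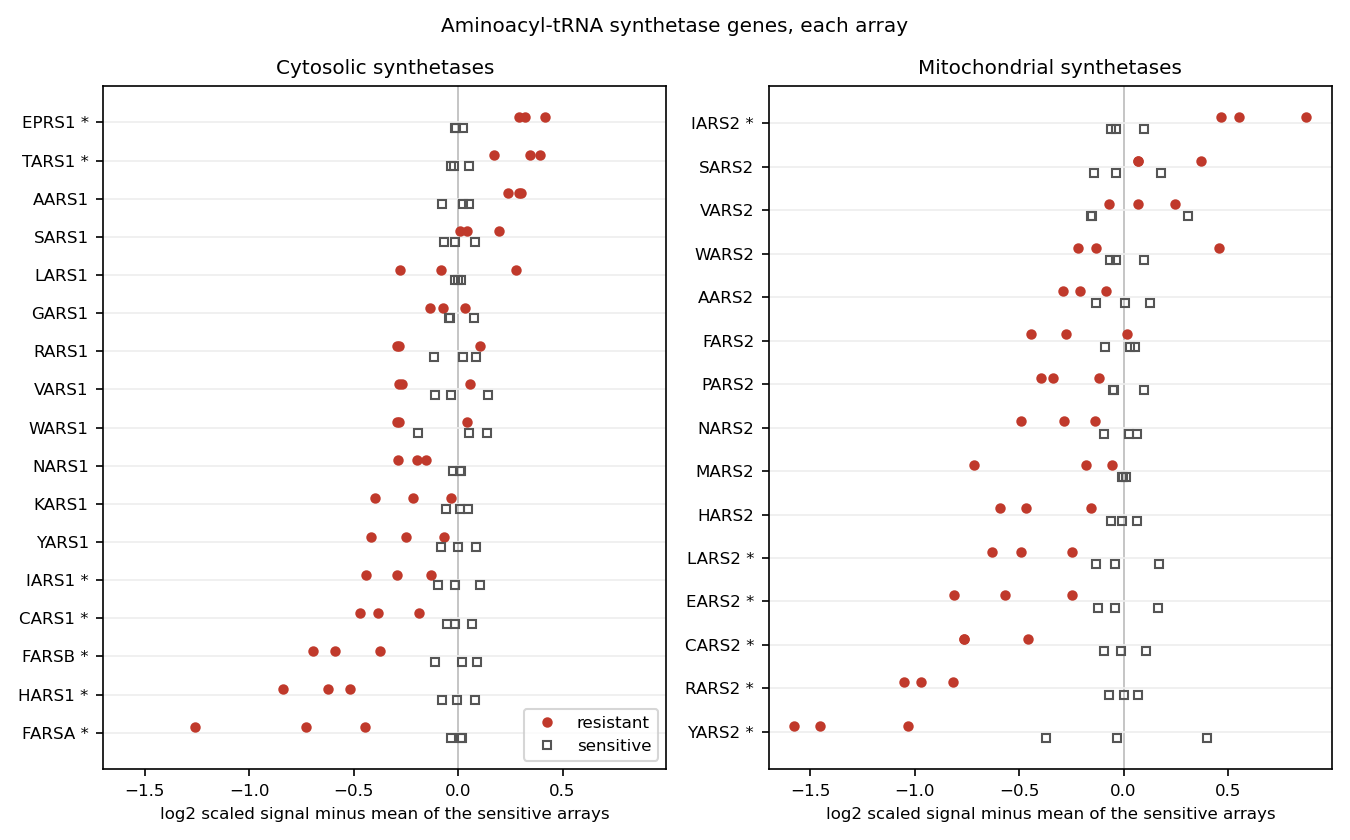
Log2 scaled signal of the 32 tested synthetase genes in each array, minus the mean of the 3 sensitive arrays of the same gene (x axis), with resistant arrays as filled circles above sensitive arrays as open squares. Genes run from the highest to the lowest log2 fold change within each compartment, and an asterisk marks the 13 called genes, from IARS2 at 0.63 to YARS2 at -1.35.

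Among the 17 cytosolic genes 2 were higher and 5 lower (29.4%), with a median log2 fold change of -0.18. Among all tested genes 12.4% were higher and 22.5% lower, with a median of -0.10. The lower cytosolic synthetases were led by both subunits of the phenylalanine enzyme and by the histidine enzyme. FARSA encodes the catalytic alpha subunit of cytosolic phenylalanyl-tRNA synthetase. Its scaled signal was 15.1, 10.5 and 18.4 in the resistant arrays, against 25.4, 24.5 and 25.4 in the sensitive arrays. The resistant arrays were all lower and also much more spread than the sensitive ones. The log2 fold change was -0.81 (standard error 0.18, limma adjusted p = 0.00038). FARSB encodes the beta subunit of the same tetramer. It had scaled signals of 55.8, 44.7 and 48.0 in resistant cells, against 77.0, 67.0 and 73.1 in sensitive cells. No resistant array reached the lowest sensitive one, and the log2 fold change was -0.55 (standard error 0.14, limma adjusted p = 0.0018). Both subunits were therefore lower, and the intervals of their changes overlapped (95% interval -1.17 to -0.45 for FARSA and -0.83 to -0.27 for FARSB).

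HARS1 charges histidine tRNA and is a target of autoantibodies in inflammatory muscle disease. Its scaled signal was 31.9, 25.5 and 29.6 in resistant cells, against 48.2, 43.2 and 45.5 in sensitive cells. All resistant arrays were well under the sensitive ones, and the resistant geometric mean was 63.4% of the sensitive one (log2 fold change -0.66, standard error 0.15, limma adjusted p = 0.00067). CARS1, the cysteine enzyme, and IARS1, the isoleucine enzyme of the multi-synthetase complex, were lower by less (log2 fold change -0.35 and -0.29, limma adjusted p = 0.034 and 0.031). Both calls were fragile, since each ended under 9 of the 19 alternative settings.

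The cytosolic genes that were higher were EPRS1 and TARS1. EPRS1, the bifunctional glutamate and proline enzyme of the complex, averaged a scaled signal of 60.9 ± 2.78 in resistant and 47.9 ± 0.712 in sensitive cells (SD, n = 3 each), with a difference of 0.34 on the log2 scale (limma adjusted p = 0.047). TARS1, the threonine enzyme, averaged 172 ± 13.4 in resistant and 139 ± 4.28 in sensitive cells (SD, n = 3 each), with a difference of 0.30 on the log2 scale (limma adjusted p = 0.027). The arrays of the groups did not overlap for either gene. The call of EPRS1 ended in 8 of the 19 alternative settings. That of TARS1 ended in 8 as well, and also with its probe sets averaged, where its log2 fold change turned to -0.13. This average gave the same weight to a dim second probe set, with a mean scaled signal of 1.48 against 156 for the brightest. The alanine enzyme AARS1 also had no overlap, with 63.0, 62.5 and 60.3 in resistant and 48.5, 53.0 and 51.9 in sensitive cells, but it did not pass the test (log2 fold change 0.28, limma adjusted p = 0.11). It was called higher in 5 of the 19 alternative settings, with a log2 fold change of 0.47 after quantile normalization (adjusted p = 0.0022).

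The remaining cytosolic genes were not called. KARS1, the lysine enzyme of the complex that is also made for mitochondria, had a log2 fold change of -0.22 (limma adjusted p = 0.063). YARS1 and NARS1, for tyrosine and asparagine, had log2 fold changes of -0.24 and -0.21. WARS1, VARS1 and RARS1, for tryptophan, valine and arginine, had -0.18, -0.16 and -0.16. GARS1, for glycine, had a log2 fold change of -0.06 and a 95% interval of -0.30 to 0.19. Glycine is one of the compounds left out of the medium of the resistant cells. LARS1, the leucine enzyme that also takes part in leucine sensing for mTORC1, had -0.03, and SARS1, for serine, had 0.08. The signs of GARS1 and LARS1 turned with quantile normalization (0.12 and 0.14) and with scaling to the median of probe sets past the filter (0.043 and 0.072), and that of VARS1 with quantile normalization (0.012).

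Of the 8 cytosolic members of the multi-synthetase complex 5 were tested, with EPRS1 higher, IARS1 lower and KARS1, LARS1 and RARS1 not called. Of the 12 outside it, 1 was higher and 4 were lower (33.3%, where 22.5% of all tested genes were lower). AIMP1, a scaffold protein of the complex that also acts as a secreted cytokine, had scaled signals of 63.5, 57.7 and 68.0 in resistant cells, against 95.3, 85.7 and 90.1 in sensitive cells. It was lower, with no overlap between the groups (log2 fold change -0.52, standard error 0.13, limma adjusted p = 0.0016). The other scaffolds, AIMP2 and EEF1E1, were not analysed here.

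Among the 15 mitochondrial genes 5 were lower (33.3%, where 22.5% of all tested genes were lower) and 1 was higher. The 15 genes had a median log2 fold change of -0.30, against -0.10 over all tested genes. YARS2, which charges mitochondrial tyrosine tRNA and is mutated in a syndrome of myopathy with sideroblastic anemia, changed the most of all 32 synthetases. Its scaled signal was 14.4, 10.7 and 9.85 in resistant cells, against 38.7, 28.7 and 22.7 in sensitive cells. The sensitive arrays were themselves spread, but the lowest of them was well over the highest resistant one. The resistant geometric mean was 39.2% of the sensitive one (log2 fold change -1.35, standard error 0.18, limma adjusted p = 1.6e-07).

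RARS2 charges mitochondrial arginine tRNA, and its mutation causes a form of pontocerebellar hypoplasia. It had scaled signals of 24.9, 21.2 and 22.4 in resistant cells, against 46.0, 43.9 and 41.8 in sensitive cells. Both groups were tight and far apart, and the resistant geometric mean was 51.9% of the sensitive one (log2 fold change -0.95, standard error 0.15, limma adjusted p = 4.3e-06). CARS2, the mitochondrial cysteine enzyme that also makes cysteine persulfides, had 15.2, 12.3 and 12.3 in resistant cells, against 22.5, 20.7 and 19.6 in sensitive cells. All its resistant arrays were lower (log2 fold change -0.66, standard error 0.17, limma adjusted p = 0.0017). EARS2, the mitochondrial glutamate enzyme, which is affected in a leukoencephalopathy of childhood, had 13.9, 9.43 and 11.2 in resistant cells, against 16.0, 18.5 and 15.2 in sensitive cells. The gap between its groups was small beside their spread (log2 fold change -0.54, standard error 0.17, limma adjusted p = 0.014). Its call ended in 6 of the 19 alternative settings, among them without resistant replicate 2 (-0.41, adjusted p = 0.085), without sensitive replicate 2 (-0.46, adjusted p = 0.11) and with its probe sets averaged (-0.25, adjusted p = 0.34). LARS2, the leucine enzyme of mitochondria, which is mutated in Perrault syndrome, was lower with a log2 fold change of -0.46 (limma adjusted p = 0.034). Its call ended in 10 of the 19 alternative settings.

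IARS2 was the only mitochondrial synthetase that was higher. It charges isoleucine tRNA in mitochondria. Its scaled signal was 129, 103 and 97.1 in resistant cells, against 75.2, 68.5 and 67.4 in sensitive cells. Each resistant array was over all of the sensitive ones, and the resistant geometric mean was 155% of the sensitive one (log2 fold change 0.63, standard error 0.13, limma adjusted p = 0.00019). It had the largest rise of all 32 synthetases.

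The other 9 mitochondrial genes were not called. HARS2, for histidine, which is also mutated in Perrault syndrome, was just short of the threshold, with 21.5, 17.3 and 15.9 in resistant and 25.04, 22.9 and 23.8 in sensitive cells (log2 fold change -0.40, limma adjusted p = 0.051), and it was called lower in 7 of the 19 alternative settings. MARS2, NARS2 and PARS2, for methionine, asparagine and proline, had log2 fold changes of -0.32, -0.30 and -0.28, each with all resistant arrays under the sensitive ones. FARS2 and AARS2, for phenylalanine and alanine, had -0.23 and -0.19. SARS2, VARS2 and WARS2, for serine, valine and tryptophan, had 0.17, 0.08 and 0.04, and the sign of VARS2 and WARS2 turned without resistant replicate 1 (-0.0019 and -0.17). By structural class, 7 of 16 tested class I enzymes were lower and 1 higher, and 3 of 15 class II enzymes were lower and 1 higher, with EPRS1, which joins both classes, left out. Class I counts 8 (50%) and class II 4 (26.7%) called genes, where 34.9% of all tested genes were called. The difference between the classes was not tested.

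**Figure D2:**
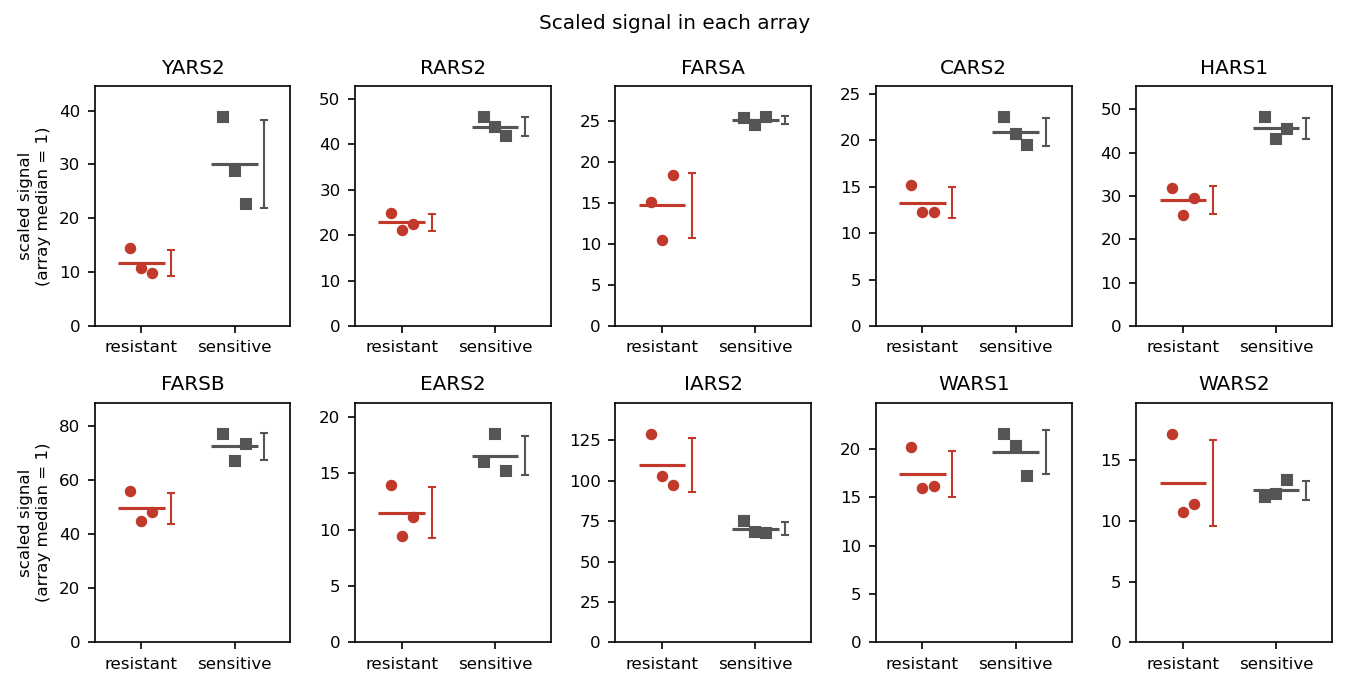
Scaled signal (array median = 1, y axis from 0) in the 3 resistant arrays (circles, left) and the 3 sensitive arrays (squares, right) for the 8 called synthetases whose log2 fold change is at least 0.5 in size, and for WARS1 and WARS2. Horizontal lines are means and vertical bars 1 SD (n = 3), and the groups are apart in the 8 called genes but overlap for WARS1 and WARS2.

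Both enzymes of an amino acid could be compared for 14 amino acids, which gave 15 pairs, since FARSA and FARSB were each set against FARS2. EPRS1 stands in both the glutamate and the proline pair, so that the pairs are not independent of each other. The difference of a pair is the log2 fold change of the cytosolic gene minus that of the mitochondrial gene. It was tested over the 6 arrays by an exact two-sided permutation test, for which 3 against 3 arrays allow no p under 0.1. In 11 of the 15 pairs the per-array differences of the groups did not overlap, which gives that smallest exact permutation p = 0.1 (0.14 after Benjamini-Hochberg adjustment over the 15 pairs), so that no pair passed. Among single genes 46.2% of all tested genes already had arrays that did not overlap, and no such share was computed for pairs of other genes. In 7 of these 11 pairs the mitochondrial gene was lower relative to its cytosolic partner, and in 4 it was higher. The widest gap was that of tyrosine, where YARS1 had a log2 fold change of -0.24 and YARS2 one of -1.35 (difference 1.11, standard error 0.21). Glutamate (EPRS1 over EARS2, 0.88, standard error 0.17) and arginine (RARS1 over RARS2, 0.79, standard error 0.091) came next, and proline, alanine, leucine and cysteine had differences of 0.63, 0.47, 0.43 and 0.32. Isoleucine ran the other way, with IARS1 lower and IARS2 higher (difference -0.92, standard error 0.12). FARSB with FARS2, histidine and valine also ran that way, by -0.32, -0.25 and -0.25. Asparagine, serine, tryptophan and FARSA with FARS2 had arrays that overlapped (exact permutation p = 0.3 each). Both enzymes of 1 amino acid were called for cysteine, where both were lower, and for glutamate and isoleucine, where the calls were opposite.

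**Figure D3:**
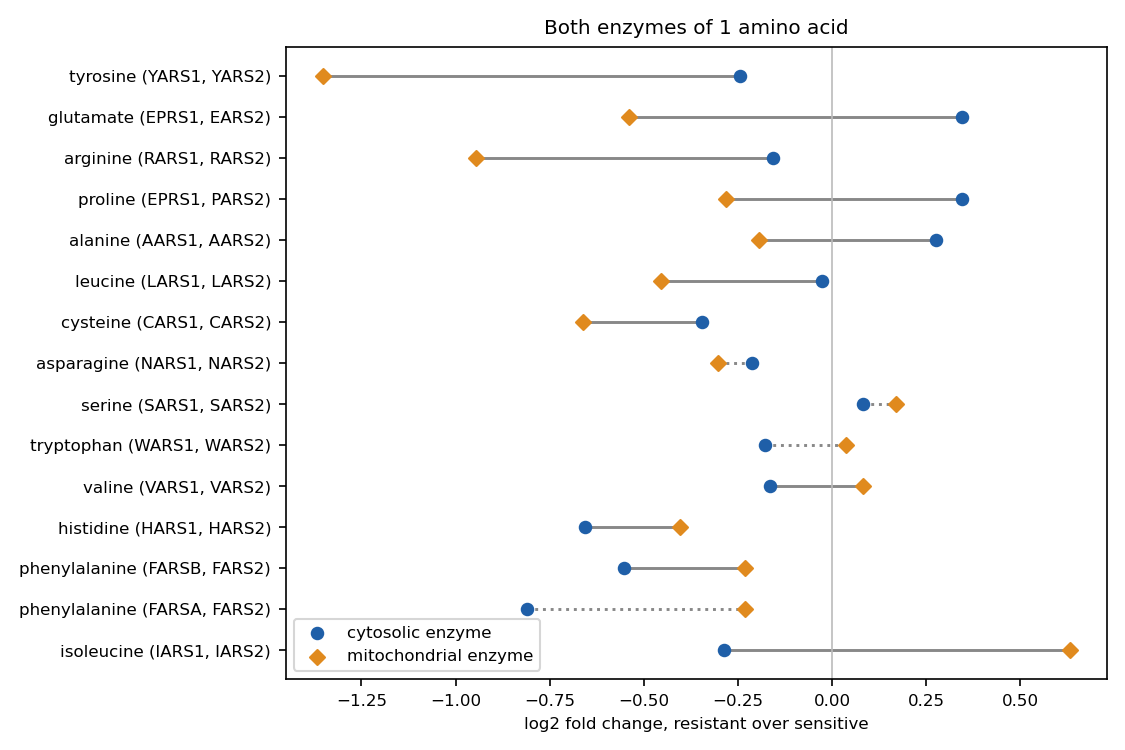
Log2 fold change, resistant over sensitive (x axis), of the cytosolic (circles) and the mitochondrial (diamonds) gene of each amino acid, ordered by their difference, with solid lines for the 11 pairs whose arrays did not overlap and dotted lines for the other 4. Tyrosine is the widest pair with the mitochondrial gene lower (1.11) and isoleucine the widest with it higher (-0.92).

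Several synthetase genes are known targets of ATF4 in mouse cells, where this transcription factor raises them when amino acids run short, through a C/EBP-ATF response element (CARE). Of 10 such genes tested here, 2 were higher (EPRS1 and TARS1) and 2 lower (CARS1 and IARS1), with a median log2 fold change of -0.12. Over all tested genes 12.4% were higher and 22.5% lower, with a median of -0.10. ATF4 itself was higher (log2 fold change 0.35, limma adjusted p = 0.0097). Of 15 tested genes of the ATF4 response, ATF4 included, 5 were higher and 5 lower. ASNS, asparagine synthetase, had scaled signals of 93.8, 84.0 and 84.6 in resistant and 59.9, 51.8 and 55.7 in sensitive cells (log2 fold change 0.65, limma adjusted p = 0.00016). ATF3, a stress-induced transcription factor, had 1.93, 2.98 and 2.69 in resistant and 9.30, 10.3 and 9.43 in sensitive cells (log2 fold change -1.95, limma adjusted p = 6.1e-10). SLC7A5, the large neutral amino acid transporter, and VLDLR, a lipoprotein receptor, were lower as well (-0.76 and -0.99). The genes of this list thus moved in both directions.

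The promoter windows of RefSeq (GRCh38.p14), from 250 bases before to 50 after a start site, were searched for TGATGNAA, the letters of the CARE, on both strands. A window was given for 30 of the 36 genes, 39 windows in all. The letters were found in 8 of the 39 windows (20.5%), where 3.62% of 35116 windows of all genes hold them. The 8 matches are shown with 8 bases on either side, since 7 of them are in cytosolic genes, the CARE letters in capitals and each written on the strand that reads TGATG.
AARS1: aacttggcTGATGCAActgcgaga
CARS1: ctagaatcTGATGCAAccgccgcc
GARS1: tcggagcaTGATGAAAtcgccgcg
IARS1: cacggaggTGATGCAAcgcgctga
MARS1: tccctcgcTGATGCAAccggaacc
NARS1: acgctctcTGATGCAAcgccggaa
TARS1: ggaccagcTGATGCAAtcgaaagg
YARS2: cacactgcTGATGGAAaaattaag
The letters TGATGCAA were shared by 6 of the 8 genes, and GARS1 and YARS2 differed at the variable base. The windows are chr16:70289457-70289756 (minus strand), chr11:3057374-3057673 (minus strand), chr7:30594628-30594927 (plus strand), chr9:92293648-92293947 (minus strand), chr12:57487818-57488117 (plus strand), chr18:57621787-57622086 (minus strand), chr5:33440715-33441014 (plus strand) and chr12:32755848-32756147 (minus strand), in the same order of genes. In 5 of the genes (CARS1, IARS1, MARS1, NARS1 and TARS1) the match began within 15 bases of the start site. In GARS1 it began at -33, and in AARS1 and YARS2 at -187 and -197, counted from the start site as 0. Of the 7 tested genes with a match, TARS1 was higher, CARS1, IARS1 and YARS2 were lower and AARS1, GARS1 and NARS1 were not called. These letters were thus found in windows of genes of either direction, and in TARS1 and NARS1 the match lies after the start site. A match of letters is not a bound site. The whole window of YARS2, the synthetase that changed most, is given with its match in capitals.
YARS2: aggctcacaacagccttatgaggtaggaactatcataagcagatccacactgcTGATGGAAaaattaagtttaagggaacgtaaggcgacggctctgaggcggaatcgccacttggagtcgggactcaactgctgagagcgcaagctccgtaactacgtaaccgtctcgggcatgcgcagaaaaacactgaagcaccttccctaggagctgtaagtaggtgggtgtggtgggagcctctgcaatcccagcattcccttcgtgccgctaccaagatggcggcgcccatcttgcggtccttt

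WARS1 is the synthetase best known as an interferon-induced gene, and 1 of its 2 windows, at chr14:100375298-100375597 (minus strand), holds letters of both kinds of interferon element. The interferon-stimulated response element was searched as GAAA, any 2 bases and GAAA again, and the gamma-activated site as TTC, any 3 bases and GAA. They are in capitals and begin at -55 and -142 from the start site.
WARS1: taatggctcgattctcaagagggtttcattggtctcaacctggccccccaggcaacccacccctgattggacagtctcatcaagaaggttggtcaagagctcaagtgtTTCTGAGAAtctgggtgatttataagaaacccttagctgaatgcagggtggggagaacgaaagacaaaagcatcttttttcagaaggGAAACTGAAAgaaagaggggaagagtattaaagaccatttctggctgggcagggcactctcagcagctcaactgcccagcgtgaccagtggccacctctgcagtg
The first motif was found in windows of WARS1 and EARS2 among the synthetases (2 of 30 genes, and 3 of 39 windows or 7.69%, of which 2 are overlapping windows of EARS2 with the same match, where 3.57% of all windows hold it). The second was found in windows of 5 synthetase genes (7 windows or 17.9%, with the overlapping windows of WARS2 sharing a match, where 7.66% of all windows hold it). Both strands were searched. The second reads alike on both strands, and neither overlapped the other in WARS1. Of 11 tested interferon-induced genes, 10 were lower in resistant cells (90.9%, where 22.5% of all tested genes were lower). Their median log2 fold change was -1.96, and the list was chosen with earlier results of these data known. TAP1, a peptide transporter, had a log2 fold change of -3.20. PSMB9, a subunit of the immunoproteasome, had scaled signals of 0.0752, 0.663 and 0.101 in resistant cells, against 20.5, 14.6 and 15.0 in sensitive cells. MX1, an antiviral GTPase, and GBP1, a guanylate-binding protein, also had resistant signals under the filter level of 1 in every array, so that no fold is given for these 3 genes. All 3 passed the filter only through the sensitive arrays, and they count toward the 10 lower genes and the median. WARS1 had scaled signals of 20.2, 16.0 and 16.1 in resistant cells, against 21.5, 20.3 and 17.1 in sensitive cells. The groups overlapped, and the log2 fold change was -0.18 with a 95% interval of -0.51 to 0.16 (limma adjusted p = 0.44). Its second probe set gave -0.12. Its mitochondrial partner WARS2 had 17.2, 10.7 and 11.4 in resistant and 11.9, 12.2 and 13.4 in sensitive cells. Resistant replicate 1 was the highest of the 6 arrays for WARS2, and the other resistant arrays were the lowest (log2 fold change 0.04, limma adjusted p = 0.90).

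NRF1 is a factor known for genes of mitochondria, and its letters, GCGCA, any base and GCGC, were searched on both strands too. They were found in windows of 6 synthetase genes, FARSB, IARS2, MARS2, PARS2, SARS1 and TARS1 (8 windows or 20.5%, with overlapping windows of SARS1 and of TARS1 sharing a match each, where 5.78% of all windows hold it). Of these, 3 encode mitochondrial enzymes. IARS2 and TARS1 were higher, FARSB was lower and the other 3 were not called. The letters searched are mostly G and C. These bases made up a median of 62% of the synthetase windows and 58.7% of all windows. The part of this in the shares was not tested. The window of IARS2, the synthetase with the largest rise, is at chr1:220093882-220094181 (plus strand), with the match in capitals at -16 from the start site.
IARS2: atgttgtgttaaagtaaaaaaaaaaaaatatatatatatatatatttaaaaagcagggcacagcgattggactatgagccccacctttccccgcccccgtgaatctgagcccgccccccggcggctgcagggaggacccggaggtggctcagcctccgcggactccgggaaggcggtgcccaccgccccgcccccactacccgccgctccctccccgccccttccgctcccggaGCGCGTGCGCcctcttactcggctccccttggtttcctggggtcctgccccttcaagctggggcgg

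Some synthetase genes lie back to back with another gene and share promoter sequence with it. This was looked at after the values were seen. The windows of 6 tested pairs with a synthetase overlapped on opposite strands. The overlap was 247 bases for RARS2 with ORC3, a subunit of the origin recognition complex, with start sites 148 bases apart. ORC3 had scaled signals of 22.4, 20.1 and 21.0 in resistant cells, against 39.9, 33.5 and 34.4 in sensitive cells, and like RARS2 it was lower with no overlap (log2 fold change -0.76 and -0.95, limma adjusted p = 0.00016 and 4.3e-06). HARS1 and HARS2 shared 184 bases, with start sites 85 bases apart, and had log2 fold changes of -0.66 and -0.40, of which the first was called. The windows of RARS2 at chr6:87589938-87590237 (minus strand) and HARS1 at chr5:140691321-140691620 (minus strand) are shown, read toward each gene, with the shared bases in capitals.
RARS2: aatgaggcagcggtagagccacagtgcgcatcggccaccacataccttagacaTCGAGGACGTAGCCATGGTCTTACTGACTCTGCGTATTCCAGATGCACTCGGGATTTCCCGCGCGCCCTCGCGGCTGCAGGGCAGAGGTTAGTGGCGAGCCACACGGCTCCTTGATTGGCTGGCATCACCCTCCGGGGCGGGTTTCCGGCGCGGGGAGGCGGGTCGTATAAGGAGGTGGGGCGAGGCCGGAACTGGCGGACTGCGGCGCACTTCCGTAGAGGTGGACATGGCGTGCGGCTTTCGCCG
HARS1: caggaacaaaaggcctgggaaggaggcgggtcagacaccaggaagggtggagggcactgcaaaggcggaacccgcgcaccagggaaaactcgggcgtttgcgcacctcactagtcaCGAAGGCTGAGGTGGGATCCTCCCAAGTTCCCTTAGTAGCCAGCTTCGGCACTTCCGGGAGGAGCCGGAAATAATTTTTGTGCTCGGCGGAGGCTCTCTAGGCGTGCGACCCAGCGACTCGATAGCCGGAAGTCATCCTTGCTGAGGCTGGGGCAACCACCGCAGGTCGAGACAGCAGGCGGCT
EARS2 with UBFD1 (149 bases, log2 fold change -0.54 and -0.25), KARS1 with TERF2IP (207 bases, -0.22 and -0.17) and FARS2 with LYRM4 (156 bases, -0.23 and -0.15) also had the same sign, although UBFD1, TERF2IP and LYRM4 were not called. SARS2 shared 290 bases with MRPS12, a protein of the mitochondrial ribosome. SARS2 was not called (0.17) and MRPS12 was lower (-0.63, limma adjusted p = 0.00041). Over all tested genes, 61.2% of 756 such pairs had the same sign. Of 105 pairs with both genes called 91 (86.7%) moved the same way. No such shares were computed for pairs of genes without overlapping windows. Among all tested genes 12.4% were higher and 22.5% lower.

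The order of genes along the chromosome, from the same RefSeq table, was also looked at after the values were seen, for 5 regions only. They were taken around EPRS1 with IARS2, HARS1 with HARS2, VARS1 with VARS2, RARS2 and YARS2. The genes of each of these pairs lie on the same chromosome. Other members that share a chromosome, such as AARS1, KARS1 and EARS2 on chromosome 16, were not looked at in this way. EPRS1 and IARS2, both higher, lie on chromosome 1 with only BPNT1 between them among tested genes, and BPNT1, a nucleotide phosphatase, had a log2 fold change of 0.16 (limma adjusted p = 0.49). For the counts of neighbours given here, 12.4% of all tested genes were higher and 22.5% lower, with a median log2 fold change of -0.10. Of 11 tested neighbours of the pair 3 were higher, SPATA17 (2.33), MTARC2 (1.26) and C1orf115 (1.08). The other 8 were not called, and the median of all 11 was 0.30. On chromosome 6, 4 of 10 tested neighbours of RARS2 were lower and 2 higher. The lower ones, ORC3, AKIRIN2 (-1.15), RNGTT (-0.72) and PM20D2 (-1.29), were all on the side of ORC3. On the other side, SLC35A1 (0.40, limma adjusted p = 0.030) and CFAP206 were higher. CFAP206 had scaled signals of 2.52, 1.64 and 1.93 in resistant cells, against 0.831, 0.247 and 0.455 in sensitive cells. It passed the filter only through the resistant arrays, so that no fold is given. Around HARS1 and HARS2 on chromosome 5, ZMAT2 (-0.42) and CD14 were lower and TAF7 (0.98) was higher among 10 neighbours. CD14 had scaled signals of 0.0902, 0.506 and 0.793 in resistant cells, against 3.05, 2.63 and 1.56 in sensitive cells, and since the resistant signals are under the filter level of 1 no fold is given. Next to YARS2 on chromosome 12, DNM1L and PKP2 were not called (-0.32 and -0.24). Of its 10 tested neighbours 2 were higher, RESF1 (0.72) and SLC2A13 (2.04), and 2 were lower, BICD1 (-0.53) and CPNE8, whose resistant signals of 0.0827, 0.225 and 0.254 were also under 1, against 3.05, 2.85 and 3.68 in sensitive cells. Around VARS1 and VARS2 on chromosome 6, neither of which was called, 11 of 31 tested neighbours were lower and the other 20 were not called. The lower ones include HLA-B and HLA-C, which present peptides to T cells (-2.11 and -2.32). They also include HCP5, whose resistant signals of 0.120, 0.0938 and 0.0769 were under 1, against 5.01, 2.59 and 3.90 in sensitive cells.

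**Figure D4:**
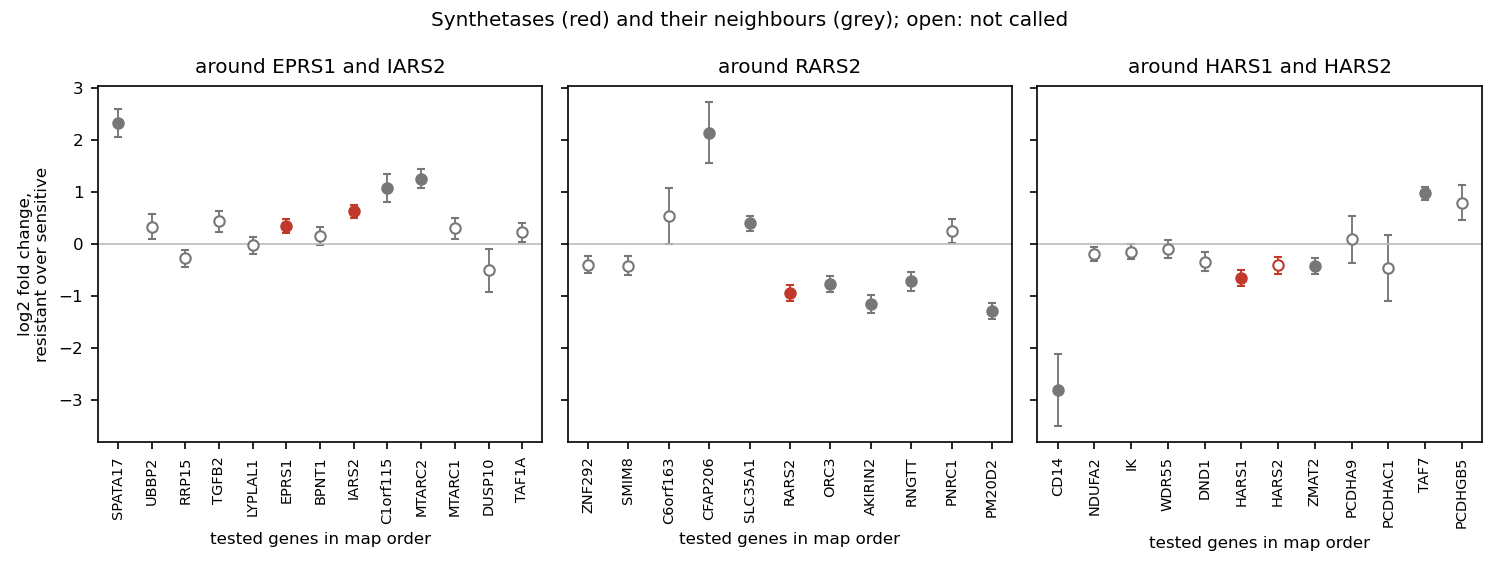
Log2 fold change, resistant over sensitive (y axis, bars are standard errors), of synthetases (red) and their tested neighbours (grey) in map order, without distances, with open circles for genes not called. EPRS1 and IARS2 stand at 0.34 and 0.63 beside BPNT1 at 0.16, and RARS2 at -0.95 is followed by ORC3, AKIRIN2 and RNGTT, all lower.

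The genes that act around the synthetases were described by lists. They are to be read beside all tested genes, of which 12.4% were higher and 22.5% lower, with a median log2 fold change of -0.10. Of 14 tested genes of tRNA maturation and export 6 were lower (42.9%) and 8 were not called, and the median was -0.31. RPP30, RPP38 and RPP14, subunits of ribonuclease P or MRP, had log2 fold changes of -0.84, -0.64 and -0.48 and TSEN54, of the tRNA splicing endonuclease, one of -0.65. XPOT, the exporter of tRNA from the nucleus, had scaled signals of 104, 81.1 and 97.2 in resistant and 111, 109 and 111 in sensitive cells. Every resistant array was under the sensitive ones, but the gene was not called (log2 fold change -0.24, limma adjusted p = 0.13). Of 4 tested cytosolic elongation factors, EIF5A (-0.51) and EEF1D (-0.36) were lower, and EEF1A1 and EEF2, which bring charged tRNA to the ribosome and move it on, were not called (-0.05 and 0.17).

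Of 12 tested mitochondrial translation factors 3 were lower (25%, near the 22.5% of all tested genes) and 1 was higher, and the median was -0.21. QRSL1 and GATC are subunits of the amidotransferase that turns glutamate on mitochondrial glutamine tRNA into glutamine, and so works after EARS2. QRSL1 had scaled signals of 13.02, 10.9 and 12.9 in resistant cells, against 22.9, 20.2 and 18.9 in sensitive cells. GATC had 17, 12.2 and 16.4 in resistant cells, against 28.7, 26.4 and 21.1 in sensitive cells. Both were lower with no overlap (log2 fold change -0.75 and -0.74, limma adjusted p = 0.00047 and 0.00074), while GATB, the third subunit, was not called (0.34, limma adjusted p = 0.18). MTFMT, which formylates the methionine of initiator tRNA in mitochondria, was lower (-0.59) and the initiation factor MTIF2 was higher (0.36). The elongation factor TUFM, which carries charged tRNA to the mitochondrial ribosome, had -0.19 and was not called.

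Probe sets of the same gene did not always move together. The 32 genes had 67 probe sets, of which 59 were tested, with p-values adjusted over all tested probe sets of the arrays. Of 18 genes with several tested probe sets, 9 had all of them on the same side of 0 and 9 had both signs, but no gene had probe sets called in opposite directions. FARSA (-0.81 and -0.89) and FARSB (-0.55 and -0.97) were lower on both of their probe sets, CARS1 on 3 of 4 and RARS2 on 2 of 3. KARS1 was lower on its second probe set (-0.45, limma adjusted p = 0.0052) and not called on the brightest. CARS2 and EARS2 were called on the brightest probe set only, with others from -0.25 to 0.14 and from -0.42 to 0.11. The other probe sets of CARS2 were dim, with mean scaled signals of 1.68 and 1.04 against 17.1 for the brightest. Their standard errors were 0.35 and 0.49, so that they say little on the call of CARS2. Those of EARS2 had mean scaled signals of 11.4, 8.49 and 1.23. The mean of all probe sets, which weighs dim ones alike, was not called for either gene (-0.25 for both, limma adjusted p = 0.36 and 0.34). EPRS1 had 0.34, 0.30 and -0.08. YARS2, HARS1 and IARS2 each rested on a single tested probe set.

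**Figure D5:**
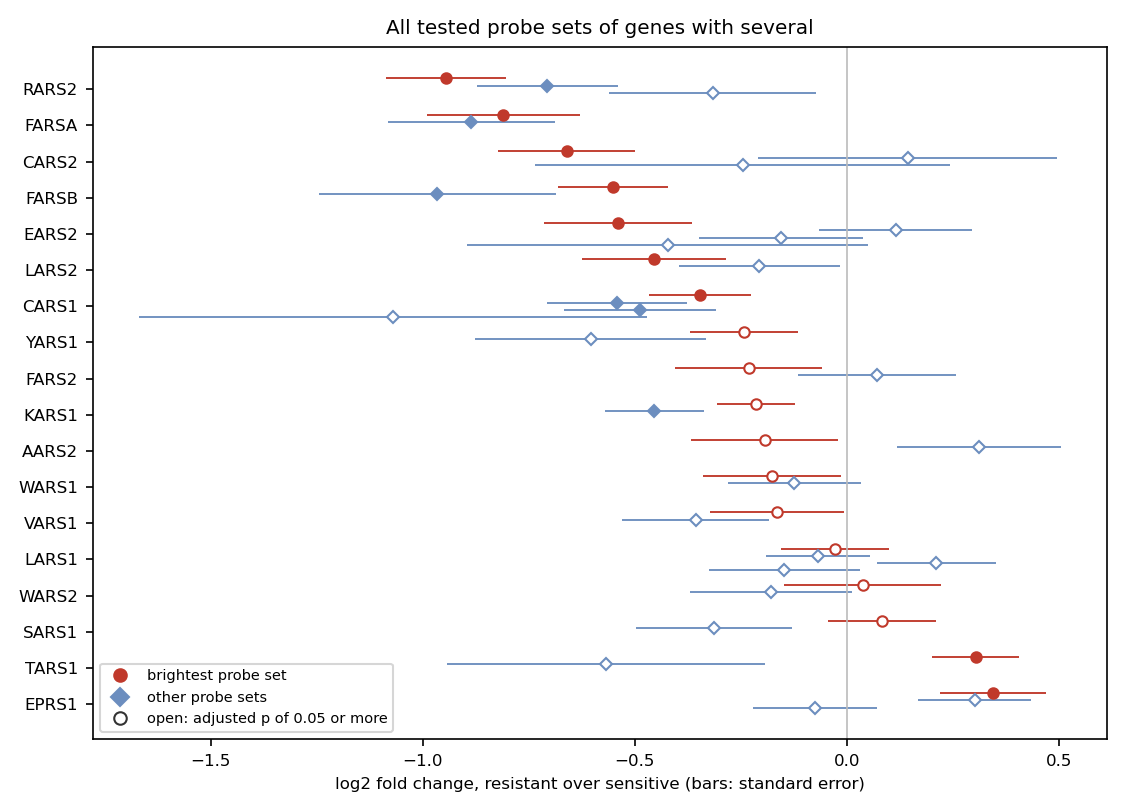
Log2 fold change, resistant over sensitive (x axis, bars are standard errors), of every tested probe set of the 18 synthetase genes with several, with the brightest as red circles, the others as blue diamonds and open symbols where the adjusted p is 0.05 or more. FARSA, FARSB, CARS1 and RARS2 have filled symbols on more than 1 probe set, and TARS1 runs from 0.30 to -0.57. The lower TARS1 value is that of a dim probe set, with a mean scaled signal of 1.48.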

How the data were processed

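Gene expression was measured on 6 Affymetrix arrays, 3 of resistant and 3 of sensitive cells, grouped by the labels. The authors deposited 1 MAS5 intensity per probe set and array, on a linear scale and with no replicates pooled. Which version of MAS5 they used was not given in the sources used here. Their GeneSpring steps (scaling to medians, filtering by control strength, testing) came later and are not in these values.

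From 54675 probe sets, 62 controls were left out. A platform annotation gave 41091 probe sets 1 gene and 1801 several, and 41043 were matched to RefSeq by Entrez identifier. Signals were divided by the array median, values under 0.01 were set to 0.01, and the probe set with the highest mean scaled signal was taken for each of 19775 genes. The 11835 genes whose scaled signal averaged 1 or more were fitted on log2 values in limma 3.58.1 under R 4.3.3 (lmFit, then eBayes with trend). The fit was run on simulated data with independent noise in each gene and array. These had no array-wide shift like that of resistant replicate 1, so they cannot show how such a shift acts on the calls. Standard errors in limma borrow from other genes. Each pair of enzymes was tested by an exact permutation test. Figures were drawn with matplotlib 3.10.9. The number of arrays limits the precision.

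Members and lists were chosen with earlier results of these data known. By rule, values in each array are given for called members with an absolute log2 fold change of at least 0.5, for WARS1 and WARS2, and up to 4 called genes of each list are named by size of change. Neighbours, shared promoters, ATF4, GATB, TUFM, EEF1A1, EEF2 and the per-array values of AARS1 and HARS2 were added after values were seen. Alternatives covered scaling, low signals, the filter, the test, the probe set taken, a replicate block and each array left out. No scanner files or dates were used, so batches were not tested. Of the 36 genes, 1 is not reported here.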

Additional observations from a re-analysis of the deposited data

How the results depend on the processing

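Against 3 higher and 10 lower synthetases, quantile normalization gave 5 higher and 9 lower, limma without trend 1 and 6, averaging a gene's probe sets 1 and 10, and the equal-variance t-test of the methods 2 and 4. The unequal-variance t-test called 0 higher and 0 lower (4 and 8 at an unadjusted p under 0.05) and 1.77% of all genes. With each array left out in turn, 1 to 3 were higher and 6 to 15 lower. Among cytosolic genes, with 2 higher and 5 lower as reported, the higher ones were 4 with quantile normalization, 1 without the filter for dimness, 1 with that filter set at 3, and 0 with limma without trend, with averaged probe sets and with the unequal-variance t-test. The lower ones were 3 with limma without trend, 2 with the equal-variance and 0 with the unequal-variance t-test. Leaving out each array gave 0 to 2 cytosolic genes higher and 3 to 8 lower. Among mitochondrial genes, with 1 higher and 5 lower as reported, the lower ones were 3 with limma without trend, 3 with averaged probe sets, 2 with the equal-variance and 0 with the unequal-variance t-test, the higher ones were 0 with either t-test, and leaving out each array gave 3 to 7 lower and 1 higher each time. Which genes make up each count was not compared beyond those named below. The median log2 fold change of cytosolic genes was -0.18 as reported, -0.012 with quantile normalization, -0.077 with scaling to the median of probe sets past the filter, and -0.29 to -0.11 with each array left out. That of mitochondrial genes was -0.30 as reported, -0.19 with quantile normalization, and -0.39 to -0.21 with each array left out. Signs turned for AARS2 (0.058), SARS1 (-0.12), TARS1 (-0.13) and WARS2 (-0.071) with averaged probe sets, for GARS1 (0.12), LARS1 (0.14) and VARS1 (0.012) with quantile normalization, for GARS1 (0.043) and LARS1 (0.072) with scaling to the median of probe sets past the filter, and for LARS1 with no further scaling (0.017) and without resistant replicate 2 (0.10). Without resistant replicate 1 the signs of VARS2 (-0.0019) and WARS2 (-0.17) turned, and WARS2 had 0.16 without resistant replicate 2. The causes were not tested. The calls of YARS2, FARSA, FARSB and IARS2 ended only with the t-tests (both kinds), and those of RARS2 and HARS1 only with the unequal-variance t-test (adjusted p = 0.051 and 0.094). The call of EARS2 ended in 6 of 19 settings. Of genes not called, AARS1 was called higher in 5 settings, and HARS2 and KARS1 were called lower in 7 and 4.

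Replicate numbers were shared between the groups, but the deviations of same-numbered arrays correlated by only 0.14, 0.0072 and 0.079, and resistant replicate 2 correlated best with sensitive replicate 3 (0.033), so the numbers were not taken as pairs. With the replicate number as a replicate block, 4 synthetases were higher and 14 lower. With 3 arrays a group and no detection calls used here, changes of the size of the standard errors, about 0.09 to 0.23 on the log2 scale, were not detectable.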
